A study of Homo sapiens with 12 samples.

Results

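HCT116 cells are a human colorectal carcinoma line, and in the HCT116 TIM-mAID derivative the fork protein TIMELESS carries a mini auxin-inducible degron, knocked in by genome editing on a wild-type background per the labels. The comparison described here asks what 5-Ph-IAA adds to cells that already received an ATR inhibitor: 3 libraries of cells given 5-Ph-IAA and ATRi (5-Ph-IAA/ATRi, the combination) against 3 given ATRi alone, chosen by sample title, out of 12 libraries in the series. Both groups received 1 µM ceralasertib (ATRi), the combination also received 1 µM 5-Ph-IAA, and all libraries were taken at 40 h. The remaining 6 libraries, 3 with DMSO and 3 with 1 µM 5-Ph-IAA alone, served to set the effect of 5-Ph-IAA with ATRi beside its effect without it. Poly(A) RNA was measured as estimated counts for 62700 genes, of which 18049 had enough counts to be tested. The series' design text calls the libraries within a group biological replicates. The sources used here do not say whether the line is a single clone or which ligase receptor it carries. A line without the degron tag given 5-Ph-IAA was not analysed here, so loss of TIMELESS and other effects of the compound cannot be told apart.

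TIMELESS and its partner TIPIN travel with the replisome, coordinate the helicase with the polymerases and help activate the checkpoint at stalled forks. ATR is the kinase that senses single-stranded DNA there, and with CHK1 it restrains new origins and holds cells out of mitosis while DNA is unreplicated. Cells that lose both safeguards can accumulate damaged forks, and DNA-PK, JNK and p53, named in the series title, are signalling proteins that respond to such damage. p53 activates genes of cell cycle arrest, repair and death, and through p21 it also leads to repression of the genes of mitosis.

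Library totals were 28109749 to 28480315 counts with the combination and 32676122 to 34704725 with ATRi, groups that do not overlap (2-sided exact permutation p = 0.1, which is as low as 3 libraries a side can go). Mitochondrially encoded genes made up 10.7% to 13.9% of the counts with the combination and 7.40% to 13.4% with ATRi, which overlap (2-sided exact permutation p = 0.5, n = 3 per group). The epithelial markers EPCAM, KRT8, KRT18, KRT19, CDH1, CLDN7 and ELF3 were present in all 12 libraries, while CEACAM5 (0 to 1 counts) and VIL1 (2 to 19 counts) were near absent. Of the marker lists of other cell types, PTPRC of leukocytes (0 to 5 counts), DCN of fibroblasts (0 to 2), RBFOX3 of neurons (1 to 8) and TTR of hepatocytes (0) were at or near 0. Other members of those lists were expressed in every library, chiefly the collagen gene COL1A1 (1173 to 3002 counts) and the neuronal vesicle gene SYT1 (576 to 2493). The 6 fibroblast markers summed to 43.6 to 69.9 CPM (normalised count relative to library size) with the combination and 44.5 to 86.6 with ATRi. The 4 neuronal markers, nearly all of it SYT1, summed to 21.4 to 26.6 and 46.5 to 54.1 CPM, and the 5 leukocyte markers to 1.35 to 1.57 and 0.423 to 0.947 CPM. CD14, a monocyte receptor gene with 3 to 21 counts a library, was the 1 leukocyte marker past the threshold of the test below (log2 fold change 1.60 ± 0.34, edgeR adjusted p = 0.0311). It did not pass when any single library of the 6 was left out (adjusted p up to 0.13), and was not called with DESeq2 or without a count filter. The part of these markers in other results was not tested.

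Adding 5-Ph-IAA to ATRi raised 294 genes, 1.63% of those tested, and lowered 340, 1.88% (edgeR quasi-likelihood test, adjusted p under 0.05 over all genes). Genes that drive mitosis fell together, p53 target genes rose, and smaller numbers rose in the lists of immediate early genes and of TGF-beta, YAP and SRF targets. At least 2-fold were 150 of the rises and 156 of the falls. Without ATRi, 5-Ph-IAA against DMSO called 1 gene, 0.00554% of those tested, in the same model (239 genes had an unadjusted p under 0.05, DESeq2 called 18, and edgeR called none when any 1 library of those groups was left out). The single gene was SULF2, a sulfatase that trims heparan sulfate, which is named here because it was the only one. SULF2 was at 29.2, 29.2 and 26.1 CPM in the ATRi libraries and at 69.8, 65.7 and 70.5 CPM in the combination libraries. With 5-Ph-IAA alone its log2 fold change against DMSO was 0.93 ± 0.10. It also rose with the combination (log2 fold change 1.28 ± 0.10, standard error; edgeR adjusted p = 0.000217). The count of 634 genes fell to between 134 and 220 when any 1 of the 6 libraries was left out. Of those 134 to 220, between 134 and 213 were among the 634. Fits that kept all 6 libraries called between 502 genes (no count filter) and 3188 (mitochondrial share as a covariate).

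**Figure D1:**
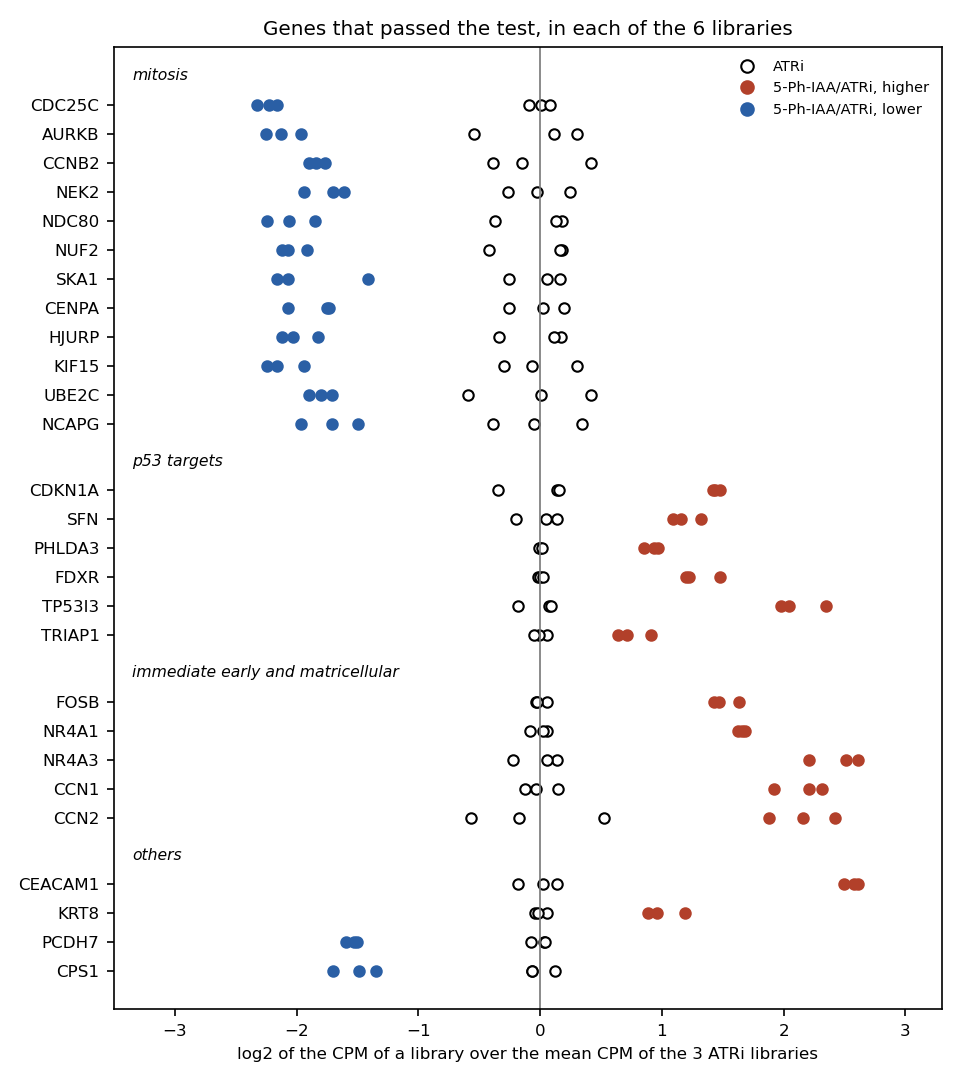
Each row is a gene and each point a library, placed by the log2 of its CPM over the mean CPM of the 3 ATRi libraries. Open circles are ATRi libraries and filled circles 5-Ph-IAA/ATRi libraries (red where higher, blue where lower), and in every row shown the filled and the open circles do not overlap. In the row of CDC25C the filled circles stand for 1.93, 2.07 and 2.17 CPM.

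Genes of cell division formed the largest block among the lists. Over the lists of mitotic entry, kinetochore, spindle and anaphase genes, 115 genes were tested, 48 fell and none rose. Their median log2 fold change was -1.35, beside -0.00487 for all genes tested, and 113 of the 115 values were negative. In 98 of the 115 all combination libraries lay below all ATRi libraries, which held for 14% of all genes tested. With 5-Ph-IAA alone the same 115 genes had a median of -0.06 against DMSO. The count of falls was between 21 and 42 without any 1 of the 6 libraries, with medians between -1.48 and -1.10. These are bulk libraries, so fewer cells in mitosis and less RNA per cell cannot be told apart.

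The switch into mitosis was part of this block. Of 23 genes of mitotic entry and mitotic kinases 11 were lower and none higher (6 to 9 without any 1 library). Their median was -1.44. CDC25C (ENSG00000158402.21; GRCh38.p14 chromosome 5, 138285265 to 138338355), the phosphatase that removes the inhibitory phosphates from CDK1, was at 9.75, 9.10 and 10.2 CPM with ATRi and at 1.93, 2.07 and 2.17 CPM with the combination. The libraries of each group lay close together and the groups far apart, and the log2 fold change was -2.24 ± 0.16 (edgeR adjusted p = 0.00013). AURKB (chromosome 17), the kinase of the chromosomal passenger complex that corrects faulty kinetochore attachments, was at 46.4, 25.8 and 40.7 CPM with ATRi and at 9.63, 7.92 and 8.63 CPM with the combination (-2.11 ± 0.23, adjusted p = 0.00117). ATRi library 2 was the lowest of its group for AURKB and still lay above all combination libraries. CCNB2, a B-type cyclin that activates CDK1, fell by 1.84 on the log2 scale. NEK2, the kinase that splits the centrosomes, fell by 1.74, and CDC25B, the phosphatase that starts CDK1 activation, fell by 1.15. The calls of these 5 genes held in all 18 alternative analyses, which included leaving out each library.

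Kinetochores join chromosomes to spindle microtubules, and 17 of 32 kinetochore, centromere and checkpoint genes fell, with none higher (10 to 16 without any 1 library). NDC80 (ENSG00000080986.13; chromosome 18, 2571557 to 2616635), the microtubule-binding subunit that gives the outer kinetochore complex its name, was at 34.4, 23.6 and 33.3 CPM with ATRi and at 7.30, 6.43 and 8.45 CPM with the combination (-2.04 ± 0.16, edgeR adjusted p = 0.000217). NUF2, its partner in the same complex, went from 30.9, 20.4 and 30.6 CPM to 6.30, 6.50 and 7.24 CPM (-2.03 ± 0.22, adjusted p = 0.00117). For both genes the groups were well apart, with the second ATRi library again the lowest of its group. SPC25, another member of the complex, had the largest fall of the list (-2.39 ± 0.40, adjusted p = 0.0106), but its call was lost without combination library 1 or 2, with an adjusted p of up to 0.061. The centromeric histone gene CENPA was at 13.2, 10.8 and 14.8 CPM with ATRi and at 3.08, 3.89 and 3.83 CPM with the combination (-1.84 ± 0.17, adjusted p = 0.000323). HJURP, the chaperone that loads CENPA onto centromeres, was at 43.9, 30.9 and 42.3 CPM against 9.55, 8.97 and 11.04 CPM (-1.99 ± 0.18, adjusted p = 0.000323). For both the loader and its cargo the groups did not overlap. SKA1, which keeps kinetochores on depolymerising microtubules, fell by 1.84 on the log2 scale.

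Of 29 spindle, kinesin and cytokinesis genes 17 fell and none rose, although this count was the least stable of the mitotic lists (3 to 13 without any 1 library). KIF15, a kinesin that helps push spindle poles apart, was at 16.1, 13.7 and 20.8 CPM with ATRi and at 3.58, 3.78 and 4.40 CPM with the combination (-2.11 ± 0.26, edgeR adjusted p = 0.00225). CIT, a kinase of the cleavage furrow, fell by 1.90 and TROAP, a spindle assembly factor, by 1.84 on the log2 scale. In the anaphase, cohesin and condensin list 3 of 31 fell (2 to 4 without any 1 library) and the median was -0.50. UBE2C, the ubiquitin-conjugating enzyme of the anaphase-promoting complex, fell by 1.80 and the condensin subunit gene NCAPG by 1.71. The calls of these 5 spindle, cytokinesis, anaphase and condensin genes held in all 18 alternatives.

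The promoters of cell division genes often carry the CHR element, TTTGAA, and the CCAAT box, which recruit the DREAM complex and NF-Y. HJURP and NDC80, which had among the smallest p values of the cell division lists, are shown from 250 bases before to 10 bases after the annotated start (RefSeq, GRCh38.p14), 5′ to 3′ in the direction of the gene, with matches to TTTGAA or CCAAT on either strand in capitals.
HJURP, chr2:233854526-233854785, minus strand: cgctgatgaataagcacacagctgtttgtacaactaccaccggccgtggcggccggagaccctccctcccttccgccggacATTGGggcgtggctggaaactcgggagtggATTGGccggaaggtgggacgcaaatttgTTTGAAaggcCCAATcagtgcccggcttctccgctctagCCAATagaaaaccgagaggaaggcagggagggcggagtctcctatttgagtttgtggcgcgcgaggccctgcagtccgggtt
NDC80, chr18:2571307-2571566, plus strand: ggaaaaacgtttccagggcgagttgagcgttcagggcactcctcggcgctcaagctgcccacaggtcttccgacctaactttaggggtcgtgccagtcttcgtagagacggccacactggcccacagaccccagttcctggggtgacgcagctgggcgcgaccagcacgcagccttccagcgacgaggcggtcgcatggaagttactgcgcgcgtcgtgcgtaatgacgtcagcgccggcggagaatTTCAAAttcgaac
The HJURP stretch held 4 CCAAT matches, beginning 169, 139, 101 and 72 bases before the start, and 1 TTTGAA match, beginning 111 bases before it. The NDC80 stretch held 1 TTTGAA match, read on the opposite strand, that begins 3 bases before the start and crosses it. In the 300-base window from 250 bases before to 50 after the start, TTTGAA on either strand was in 52.9% of the 51 promoters of cell division genes that fell. It was in 48.4% of the 124 promoters of all cell division list genes and in 10.6% of the 17301 promoters of tested genes. For CCAAT the shares were 70.6%, 62.9% and 34.5%, and for both together 41.2%, 33.1% and 4.18%. In neither stretch did a TTTGAA match overlap a CCAAT match. No exact match was in the window of CDC25C. A match is a description of the letters and was not tested as a binding site.

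p53 target genes rose. Of 68 tested members 24 rose and 2 fell, with a median log2 fold change of 0.69 against -0.00487 for all genes, and 59 of the values were positive. In 49 of the 68 all combination libraries lay above all ATRi libraries, which held for 12.9% of all genes tested. With 5-Ph-IAA alone the median of the list was 0.27 against DMSO and none of its members passed. The count of rises was between 6 and 10 without any 1 of the 6 libraries, with medians between 0.64 and 0.73.

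Cell cycle arrest genes made the clearest p53 group, with 9 of 15 higher and 1 lower (3 to 5 higher without any 1 library). CDKN1A (ENSG00000124762.14; chromosome 6, 36676463 to 36687332), which encodes the CDK inhibitor p21, was at 596, 834 and 842 CPM with ATRi and at 2026, 2112 and 2048 CPM with the combination. The groups were far apart and the combination libraries lay close together (1.45 ± 0.18, edgeR adjusted p = 0.00262). The rise of CDKN1A with 5-Ph-IAA alone was 1.00 ± 0.18 on the log2 scale, not past the threshold, and the difference between both rises was 0.45 (adjusted p = 0.829). SFN, the 14-3-3 protein that holds CDC25 and CDK1 in the cytoplasm, was at 381, 302 and 359 CPM with ATRi and at 774, 868 and 738 CPM with the combination (1.19 ± 0.19, adjusted p = 0.00907). PHLDA3, a repressor of AKT signalling, went from 48.0, 47.8 and 48.6 CPM to 86.9, 91.8 and 94.0 CPM (0.92 ± 0.12, adjusted p = 0.00289). The member that fell, GTSE1, is itself a G2 and mitosis gene that restrains p53 (-1.83 ± 0.37, adjusted p = 0.0246), and its call was lost without any library but ATRi library 2, with an adjusted p of up to 0.107.

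Repair and metabolic targets of p53 had 11 of 31 members higher and none lower (3 to 5 without any 1 library). TP53I3 (chromosome 2), a quinone oxidoreductase, was at 51.0, 51.6 and 42.9 CPM with ATRi and at 201, 247 and 191 CPM with the combination (2.13 ± 0.22, edgeR adjusted p = 0.000932). FDXR (chromosome 17), the mitochondrial ferredoxin reductase, was at 201, 203 and 207 CPM with ATRi and at 477, 567 and 467 CPM with the combination (1.31 ± 0.12, adjusted p = 0.000344). For both genes every combination library was more than 2-fold above every ATRi library. TRIAP1, a small inhibitor of apoptosome assembly, rose by 0.76 ± 0.11. XPC, the damage sensor of nucleotide excision repair, had 0.88 ± 0.15 (adjusted p = 0.0101), lost without combination library 2 or 3 with an adjusted p of up to 0.0578. The calls of CDKN1A, SFN, PHLDA3, TP53I3, FDXR and TRIAP1 held in all 18 alternatives.

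Feedback regulators of p53 had 3 of 8 members higher and 1 lower (0 to 1 higher without any 1 library), with 7 positive values and a median of 0.82. MDM2, the ligase that degrades p53, was at 234, 336 and 319 CPM with ATRi and at 490.4, 573 and 620.1 CPM with the combination (0.92 ± 0.21, edgeR adjusted p = 0.0383). PPM1D, the phosphatase that switches damage kinases off, rose by 1.12 ± 0.25 (adjusted p = 0.0352) and TP53INP1, a stress protein that promotes p53 phosphorylation, by 1.16 ± 0.20 (adjusted p = 0.0119). COP1, another p53 ligase, was the member with a negative value and fell: 31.2, 31.1 and 29.99 CPM with ATRi against 20.4, 20.02 and 20.4 CPM with the combination (-0.60 ± 0.09, adjusted p = 0.00805). Its groups were tight and far apart, and the call was lost in 1 alternative, the fit without a count filter (adjusted p = 0.0546). The calls of MDM2 and PPM1D were lost without any 1 of the 6 libraries, with an adjusted p of up to 0.153 and 0.149, and also with library totals only. That of TP53INP1 was lost without ATRi library 1 or combination library 3, with an adjusted p of up to 0.0618.

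Among death genes the p53 list leaned upward and the caspase and apoptosome list did not. In the p53 death list 4 of 19 rose and none fell (2 without any 1 library), beside 1.63% of all genes tested that rose. The p53 lists share some genes, and TP53I3, described above as a metabolic target, is among the 4. Its median was 0.56 and 17 values were positive. All combination libraries lay above all ATRi libraries in 13 of the 19 (12.9% of all genes tested) and below in 1. FAS, a death receptor, was at 34.3, 50.3 and 44.7 CPM with ATRi and at 87.6, 93.1 and 109 CPM with the combination (1.16 ± 0.23, edgeR adjusted p = 0.0211), and its call was lost without any 1 library, with an adjusted p of up to 0.0998. The pore-forming BAX had 0.59 ± 0.16 (adjusted p = 0.0756), and its libraries did not overlap, at 82.0 to 111 CPM against 121 to 151 CPM. For the BH3-only genes the values were 0.27 ± 0.29 for BBC3 (PUMA, adjusted p = 0.75) and 0.72 ± 0.26 for PMAIP1 (NOXA, adjusted p = 0.169). The TRAIL receptor gene TNFRSF10B had 0.52 ± 0.32 (adjusted p = 0.479). No gene of 18 caspase and apoptosome genes passed in edgeR's test (median -0.02). Among 21 BCL2 family genes and inhibitors of apoptosis 3 rose and 1 fell, none of them called without any 1 library. The fall was BIRC5 (survivin), which also acts in the chromosomal passenger complex (-1.50 ± 0.33, adjusted p = 0.0336, up to 0.134 without 1 library).

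Of the genes of the series title and of the fork, PRKDC, MAPK8, MAPK9, TIMELESS, TIPIN, ATR, ATM, CHEK1 and CLSPN did not pass the threshold. PRKDC, which encodes DNA-PKcs, was at 208 to 421 CPM with ATRi and at 220.3 to 337 CPM with the combination, ranges that overlap (-0.18 ± 0.44, edgeR adjusted p = 0.915). The JNK genes MAPK8 and MAPK9 had -0.15 ± 0.11 (adjusted p = 0.571) and -0.14 ± 0.16 (adjusted p = 0.771), also with overlapping libraries. In the JNK and p38 list 2 of 33 rose and 1 fell, none of them without any 1 library, and the median was -0.03. Over all genes tested 1.63% rose and 1.88% fell. The end joining list had 1 fall among 17, the polymerase gene POLQ (-1.64 ± 0.31, adjusted p = 0.0197), which was lost without any library but ATRi library 2 (adjusted p up to 0.0881). TIMELESS was at 30.3, 32.3 and 46.9 CPM with ATRi and at 17.6, 24.5 and 24.5 CPM with the combination, groups that do not overlap (-0.72 ± 0.29, adjusted p = 0.239). The degron acts on the protein, so this RNA is no check of the treatment. TIPIN (-0.06 ± 0.22, adjusted p = 0.941), ATR (-0.08 ± 0.11, adjusted p = 0.813) and ATM (-0.24 ± 0.13, adjusted p = 0.388) had overlapping libraries. CHEK1 (-0.72 ± 0.39, adjusted p = 0.405) and the checkpoint mediator gene CLSPN (-1.13 ± 0.45, adjusted p = 0.217) had all combination libraries below all ATRi libraries but did not pass.

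Within the fork protection, ATR and CHK1 list 2 of 21 fell, beside 1.88% of all genes tested. Its median was -0.30 and 19 values were negative. All combination libraries lay below all ATRi libraries in 9 of the 21 (14% of all genes tested) and above in 1. RHNO1 was the firmer of the 2 falls. RHNO1 encodes a partner of the 9-1-1 clamp that helps activate ATR, and it was at 17.3, 17.1 and 16.7 CPM with ATRi and at 8.70, 9.08 and 9.30 CPM with the combination. The libraries of each group nearly coincided (-0.92 ± 0.11, edgeR adjusted p = 0.00262), and the call held in all 18 alternatives. Genes of origin licensing and the replisome had 3 of 47 lower (none without any 1 library, 1 to 24 in the other fits). Their median was -0.81, with 46 negative values and 35 genes whose combination libraries all lay below the ATRi libraries. Homologous recombination and Fanconi genes had 5 of 39 lower (0 to 1 without any 1 library, 1 to 23 in the other fits). Their median was -0.68. None of 31 E2F, RB and G1/S cyclin genes passed, with a median of -0.20. The medians of these 3 lists with 5-Ph-IAA alone were -0.09, -0.07 and -0.06.

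**Figure D2:**
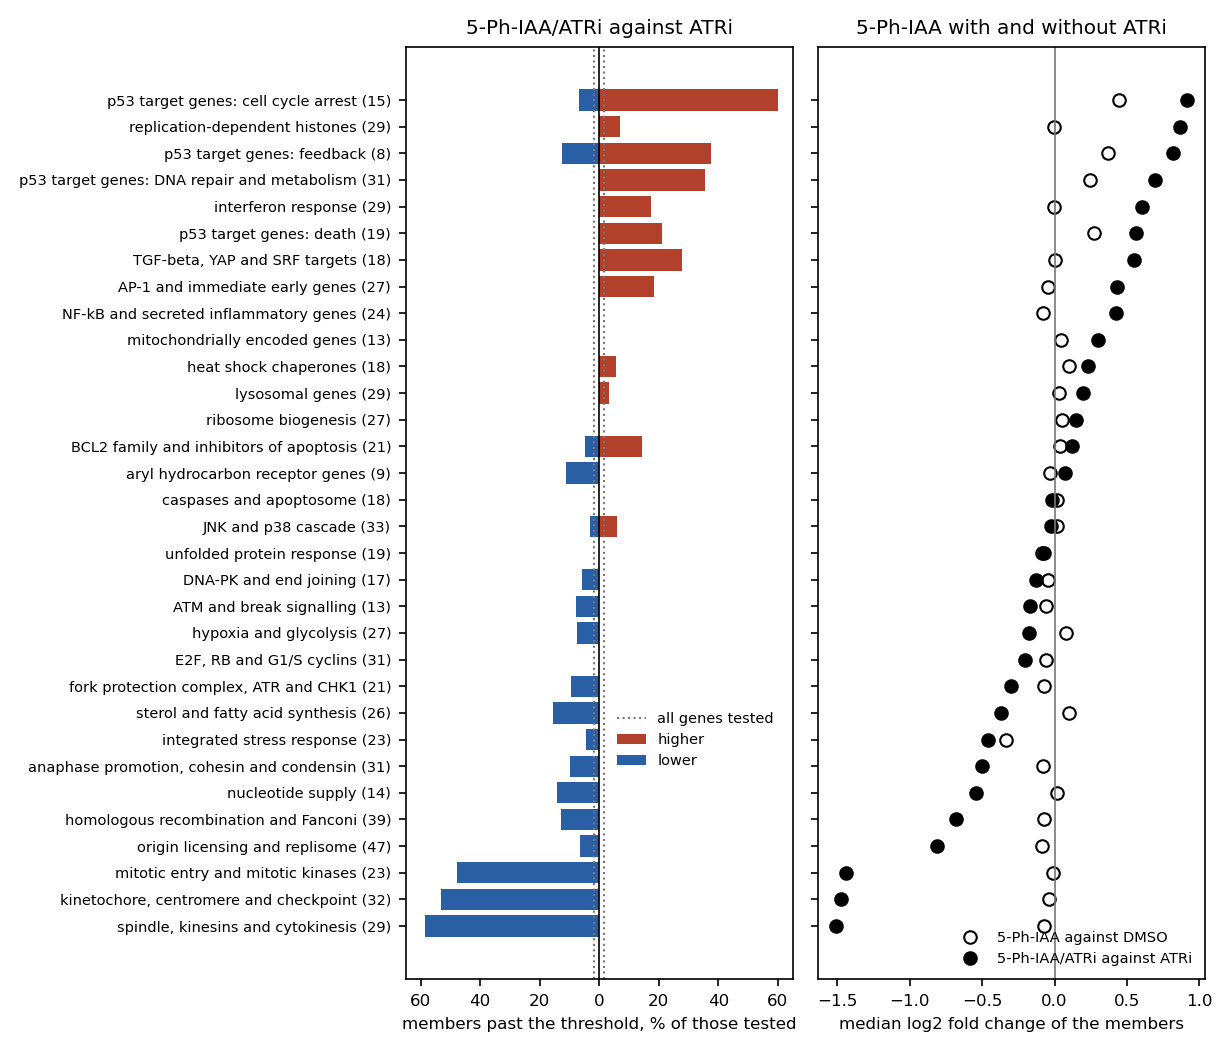
The left panel gives, for each list (number of genes tested in brackets), the percentage of members higher (red, to the right) and lower (blue, to the left) in 5-Ph-IAA/ATRi against ATRi, with dotted lines at 1.63% and 1.88%, the shares of all genes tested. The right panel gives the median log2 fold change of the same members in 5-Ph-IAA against DMSO (open) and in 5-Ph-IAA/ATRi against ATRi (filled), and the mitotic lists at the bottom run from -1.51 to -1.44 with ATRi and from -0.07 to -0.01 without it.

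Outside the cell cycle and p53 lists, some rapidly induced genes rose. In the list of AP-1 and other immediate early genes 5 of 27 rose and none fell (4 to 5 without any 1 library). Of all genes tested 1.63% rose. In this list 18 values were positive and 9 negative, with a median of 0.43 against -0.05 with 5-Ph-IAA alone. The orphan nuclear receptor gene NR4A1 (ENSG00000123358.20; chromosome 12, 52022832 to 52059503) was at 12.1, 11.03 and 11.9 CPM with ATRi and at 37.4, 36.8 and 36.0 CPM with the combination. Each group lay within a narrow range and the groups were far apart (1.65 ± 0.13, edgeR adjusted p = 0.000217). Its relative NR4A3 went from 0.955, 1.22 and 1.16 CPM to 6.33, 5.12 and 6.78 CPM (2.45 ± 0.30, adjusted p = 0.00225). FOSB, an AP-1 subunit, was at 3.25, 3.45 and 3.27 CPM against 10.3, 9.23 and 8.95 CPM (1.51 ± 0.22, adjusted p = 0.00526), and MAFK, a small MAF protein, rose by 0.75 ± 0.10 (adjusted p = 0.00266). JUN, the AP-1 subunit that JNK phosphorylates, had all combination libraries (51.9 to 54.7 CPM) above all ATRi libraries (29.2 to 43.9 CPM) and did not pass (0.62 ± 0.30, adjusted p = 0.339).

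Targets of TGF-beta, YAP and SRF had 5 of 18 members higher and none lower (2 to 3 without any 1 library). The share of all genes tested that rose was 1.63%. The median of the list was 0.55 against 0.00 with 5-Ph-IAA alone. The matricellular protein gene CCN1 (ENSG00000142871.18; chromosome 1, 85580761 to 85583950) was at 18.5, 16.4 and 15.4 CPM with ATRi and at 77.7, 63.4 and 83.3 CPM with the combination (2.16 ± 0.22, edgeR adjusted p = 0.000871). Its relative CCN2 was at 1.49, 1.96 and 3.19 CPM against 9.88, 8.14 and 11.8 CPM (2.17 ± 0.34, adjusted p = 0.00815). Both genes were at their highest in combination library 3. The calls of NR4A1, NR4A3, FOSB, MAFK, CCN1 and CCN2 held in all 18 alternatives.

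Among genes with a mean of at least 5 CPM in the higher of both groups, the largest rise was that of CEACAM1 (chromosome 19), an epithelial cell adhesion glycoprotein, at 1.46, 1.83 and 1.69 CPM with ATRi and at 9.38, 9.92 and 10.2 CPM with the combination (2.56 ± 0.22, edgeR adjusted p = 0.00028). It met that limit through the combination group alone, as did NR4A3, CCN2, PURPL and KRTAP2-3. Falls such as those of SPC25 and CDC25C met it through the ATRi group alone. In both directions the limit thus favours large changes of genes that are low in the other group. KRT8, a keratin of simple epithelia, was at 2384, 2544 and 2426 CPM with ATRi and at 4541, 4772 and 5578 CPM with the combination (1.02 ± 0.14, adjusted p = 0.00415). Its partner KRT18 had 0.99 ± 0.26 (adjusted p = 0.0636) and KRT19 0.53 ± 0.19 (adjusted p = 0.185), both with all combination libraries above all ATRi libraries. In the colorectal epithelial list KRT8 was the 1 of 7 tested members to pass and the median was 0.33, with EPCAM at -0.24 ± 0.18 (adjusted p = 0.586), CLDN7 at 0.09 ± 0.21 (adjusted p = 0.91) and ELF3 at 0.10 ± 0.16 (adjusted p = 0.846). Other large rises were the p53-induced long noncoding RNA PURPL (2.12 ± 0.28), the glycosyltransferase gene GALNT5 (1.91 ± 0.31), the platelet-activating factor receptor gene PTAFR (1.83 ± 0.24) and the protease gene KLK5 (1.74 ± 0.18). The calls of CEACAM1, KRT8, PURPL, GALNT5, PTAFR and KLK5 held in all 18 alternatives. KRTAP2-3, with 2.24 ± 0.46 (adjusted p = 0.0254, up to 0.0996 without 1 library), has near-identical copies and its counts are uncertain.

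Interferon response genes leaned upward and varied between libraries. Of 29 tested, 5 rose and none fell (1 to 5 without any 1 library), beside 1.63% of all genes tested that rose. All 29 values were positive, and the median was 0.61. OASL, an antiviral protein related to the 2'-5'-oligoadenylate synthetases, was at 5.94, 7.55 and 4.54 CPM with ATRi and at 18.3, 33.1 and 18.9 CPM with the combination (1.96 ± 0.29, edgeR adjusted p = 0.00548; held in all 18 alternatives). IFIT1, which binds viral RNA caps, was at 11.4, 20.8 and 12.02 CPM with ATRi and at 26.5, 76.0 and 35.4 CPM with the combination (1.64 ± 0.35, adjusted p = 0.0292). For both genes library 2 was the highest of its group in both groups. The IFIT1 call was lost without ATRi library 1 or 3 or combination library 2 or 3, and with only the 6 libraries compared (adjusted p up to 0.113). None of 24 NF-kB and secreted inflammatory genes passed, although the median was 0.43.

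In the sterol and fatty acid synthesis list 4 of 26 genes fell (0 to 1 without any 1 library), beside 1.88% of all genes tested. Its median was -0.37 and 22 values were negative. In 14 of the 26 all combination libraries lay below all ATRi libraries (14% of all genes tested). Among the genes that fell was SCD, the desaturase that makes monounsaturated fatty acids. SCD was at 1748, 2545 and 2283 CPM with ATRi and at 803, 946 and 814 CPM with the combination (-1.36 ± 0.24, edgeR adjusted p = 0.0149). Its call was lost without any library but ATRi library 1 (adjusted p up to 0.0757). PHGDH, the first enzyme of serine synthesis, was at 91.9, 124 and 92.9 CPM with ATRi and at 31.2, 32.6 and 29.7 CPM with the combination (-1.72 ± 0.29, adjusted p = 0.0117; lost without any combination library, adjusted p up to 0.0637). PHGDH was the only 1 of 23 integrated stress response genes to pass, and the asparagine synthetase gene ASNS had -1.62 ± 0.49 (adjusted p = 0.105). Of 9 aryl hydrocarbon receptor genes, a check on an indole compound, none rose past the threshold and NQO1 fell (-0.71 ± 0.12, adjusted p = 0.00915; lost without combination library 1 or 3, adjusted p up to 0.0604). CYP1A1, the receptor's most used readout, was at 1.37, 1.44 and 1.44 CPM with ATRi and at 2.54, 2.33 and 3.34 CPM with the combination (0.95 ± 0.24, adjusted p = 0.0546). Its groups did not overlap, and it passed in 5 of 18 alternatives, with adjusted p from 0.00394 to 0.222 over all of them. Replication-dependent histone genes, whose transcripts mostly lack a poly(A) tail, had 2 of 29 higher (1 without any 1 library), beside 1.63% of all genes tested. Their median was 0.86, and their copies are too alike for firm counts. None of 13 mitochondrially encoded genes passed (median 0.30).

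Many of the genes that fell outside the cell division lists were long. The genes counted here exclude the lists of cell division, origin licensing and replisome, homologous recombination and Fanconi, E2F and G1/S cyclins, nucleotide supply and p53. They still include the end joining, fork protection and ATM lists and any unlisted genes of division or repair. POLQ, with a span of 115.2 kb, is thus among them. Those that fell had a median genomic span of 68.6 kb, beside 20.4 kb for those that rose and 25.1 kb for those not called. Over 100 kb were 115 of 276 that fell (41.7%), 34 of 264 that rose (12.9%) and 16.3% of those not called. Across the 18 alternatives the first share ran from 26.8% to 45.6% and the second from 8.06% to 14.1%. Protein-coding genes outside the excluded lists were split by span into 5 bins of equal size. In the longest bin 4.31% fell, beside 1.14% to 1.55% in each of the 4 shorter bins. The median log2 fold change of that bin was only -0.10, and it varied with the libraries of both groups. The 3 combination libraries stood at -0.12, -0.17 and -0.01 against the ATRi mean, and the combination mean at 0.02, -0.16 and -0.16 against ATRi libraries 1, 2 and 3. The shift was thus near 0 for combination library 3 and against ATRi library 1. Low GC content goes with long span, and within the lowest of 5 bins of GC content 6.63% of the longest and 1.66% of the shortest genes fell. Within the highest bin of GC content, where the longest genes had a median span of 59.4 kb, the shares were 0.552% and 2.03%. Spans and GC content are those of GENCODE v29, which held 95.7% of the genes tested.

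**Figure D3:**
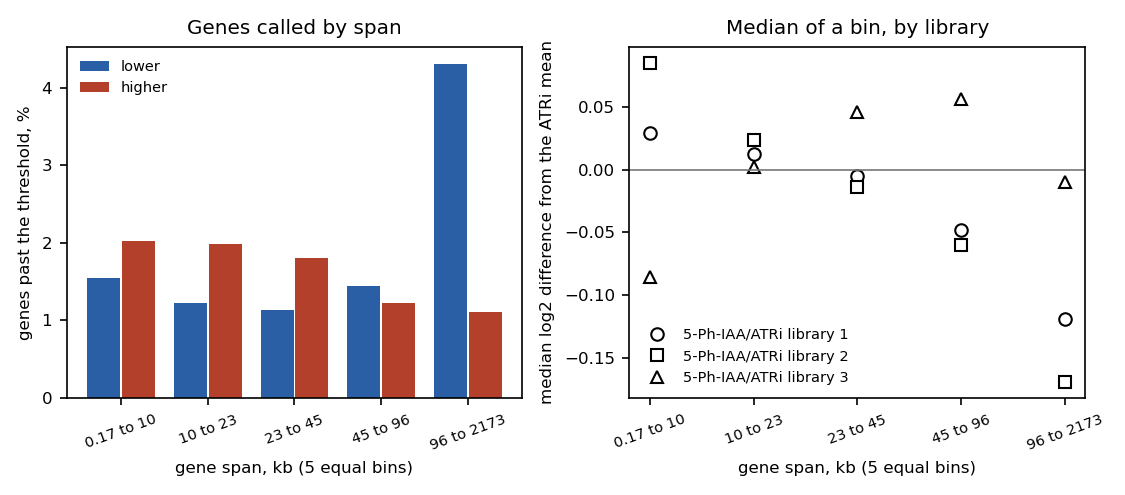
Protein-coding genes outside the cell division, replisome, homologous recombination, E2F, nucleotide supply and p53 lists are split into 5 bins of equal size by genomic span in kb. The left panel gives the percentage of each bin that fell (blue) or rose (red), and the longest bin stands at 4.31% lower. The right panel gives the median log2 difference of each 5-Ph-IAA/ATRi library (circle, square and triangle) from the mean of the ATRi libraries on the scale of log2 (CPM + 0.5), which in the longest bin is -0.12, -0.17 and -0.01.

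The protocadherin gene PCDH7 (ENSG00000169851.16; chromosome 4, 30720369 to 31146800), which spans 426.4 kb and encodes a cell adhesion receptor, had the smallest adjusted p of all genes tested. It was at 65.6, 65.9 and 61.0 CPM with ATRi and at 22.3, 22.6 and 21.3 CPM with the combination (-1.54 ± 0.10, edgeR adjusted p = 6.01e-05). The libraries of each group were almost equal and the groups were far apart. CPS1 (chromosome 2), the first enzyme of the urea cycle, with a span of 201.4 kb, was at 35.6, 40.6 and 35.7 CPM against 14.6, 13.3 and 11.5 CPM (-1.51 ± 0.13, adjusted p = 0.00029). Other long genes that fell were the transcription factor gene EBF2 (203.7 kb, -1.88 ± 0.22), the vesicle fusion gene SYT1, a member of the neuronal marker list (588.0 kb, -1.06 ± 0.14), the guanine exchange factor gene DOCK1 (547.1 kb, -0.93 ± 0.12) and the junction scaffold gene MAGI1 (685.3 kb, -0.67 ± 0.10). The calls of these 6 genes held in all 18 alternatives.

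Whether 5-Ph-IAA did more with ATRi than without was tested as an interaction in the same model. For 2 genes the effect was more positive and for 12 more negative with ATRi, 14 in all or 0.0776% of those tested, while 1317 had an unadjusted p under 0.05. All 14 were also among the 634 genes called against ATRi, which shares its libraries with this test. CDC25C had -0.03 ± 0.14 without ATRi and -2.24 ± 0.16 with it (difference -2.20, edgeR adjusted p = 0.00358), and PCDH7 had -0.18 ± 0.09 and -1.54 ± 0.10 (difference -1.36, adjusted p = 0.00358). These 2 calls held in all 23 alternatives, and each of the other 12 was lost in 4 to 13 of them. CCN1 (0.02 ± 0.21 without ATRi) and NR4A1 (0.13 ± 0.13 without it) were the genes with a more positive effect, by 2.13 (adjusted p = 0.037) and 1.53 (adjusted p = 0.0175). Kinetochore and centromere genes NDC80 (-1.88), NUF2 (-2.02), CENPA (-1.80) and HJURP (-1.86), and AURKB (-2.16), had differences past the threshold. So did CPS1 (-1.36), the DNA helicase gene PIF1 (-2.57) and the phosphatase gene CDKN3 (-1.51). The little-characterised nuclear gene SAMD11 (-1.95) and FAM72D (-1.93), whose near-identical copies make its counts uncertain, completed the 12. None of the 68 p53 target genes had a difference past the threshold, and their median difference was 0.35. In simulated data the interaction test recovered 10 of 100 genes changed 2-fold and 68 of 100 changed 4-fold. It could thus rarely call differences as small as those of most p53 targets, and equal effects are not shown. Leaving out 1 of the 12 libraries gave between 2 and 15 calls.

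**Figure D4:**
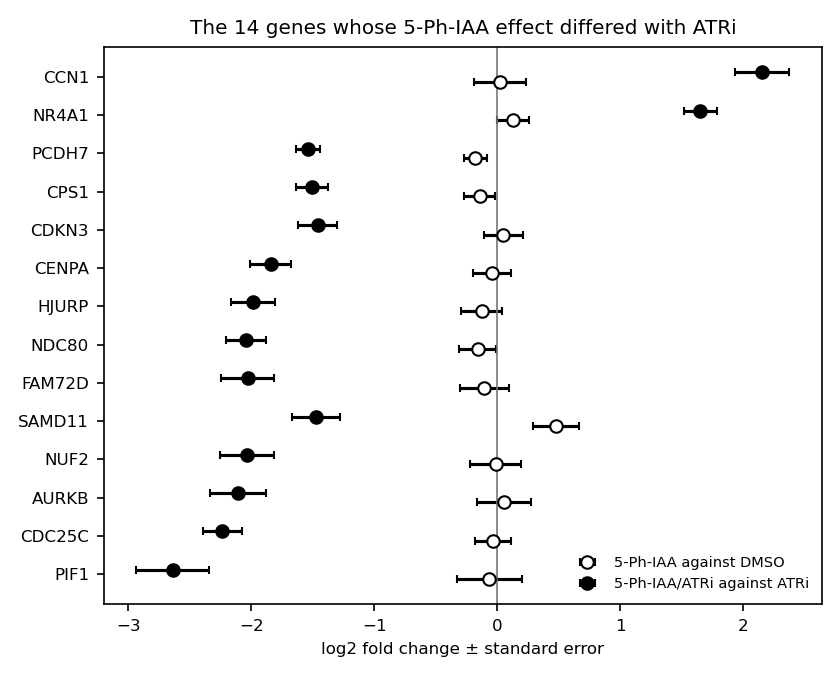
Open circles give the log2 fold change of 5-Ph-IAA against DMSO and filled circles that of 5-Ph-IAA/ATRi against ATRi, with bars of 1 standard error, for the 14 genes whose difference between both passed the threshold. CCN1 and NR4A1 stand to the right with ATRi, the other 12 genes to the left, and the open circles lie between -0.18 and 0.48.

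The combination libraries held counts from more genes. With at least 1 count they showed 28065, 29446 and 28175 genes, against 27053, 25991 and 26679 with ATRi, although their totals were smaller. At a common total of 27695914 counts, the smallest of the 12 libraries, the computed numbers were 27978, 29370 and 28038 against 26163, 25377 and 25774, and each was above all 9 other libraries of the series. The difference of means was 2691 genes (2-sided exact permutation p = 0.1, n = 3 per group, the smallest that 3 against 3 allows). The genes too low to be tested took 0.0897% to 0.110% of counts with the combination and 0.0607% to 0.0732% with ATRi. Long noncoding genes that were tested had a median log2 fold change of 0.12. Of 2558, 35 (1.37%) were higher and 11 (0.43%) lower, beside 1.63% and 1.88% of all genes tested. Protein-coding genes had -0.02, with 245 (1.77%) higher and 322 (2.32%) lower of 13869. The fifth of all tested genes with the lowest mean CPM had a median of 0.16, with 1.44% higher and 0.222% lower. The count filter can keep a gene through a single group. Low genes kept through the combination alone thus favour positive values, and these shares and medians are no separate result. How far this shaped them was not tested. At the libraries' own totals the difference of means was 1988 genes, beside the 2691 at the common total. The part of library properties other than the total in the number of genes seen was not tested.

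**Figure D5:**
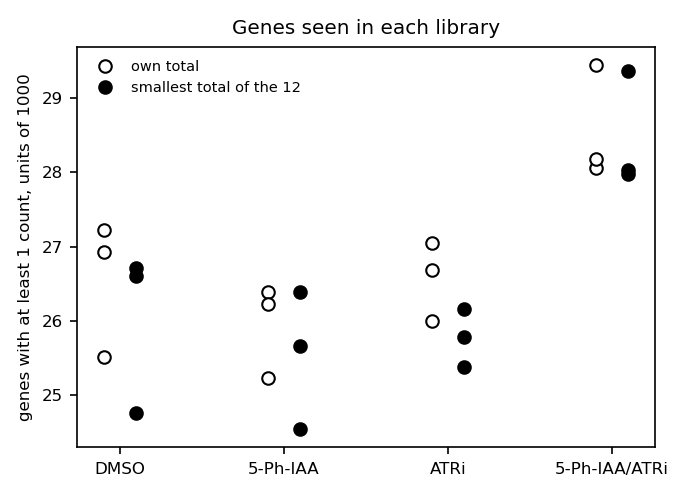
Points give the number of genes, as labelled on the axis, with at least 1 count in each of the 12 libraries, at the library's own total (open) and as computed for the smallest total of the 12, 27695914 counts (filled). The 5-Ph-IAA/ATRi libraries lie between 27978 and 29370 genes at the common total, above every other library.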

How the data were processed

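Per the submitters' processing notes, the tools were Salmon 1.10.1, STAR 2.7.9a, SAMtools 1.17, cutadapt 3.4, Trim Galore 0.6.7 and FastQC 0.12.1, with the build GRCh38.p14. The sources used here do not give the annotation release or the strand setting. The authors deposited estimated counts per gene, of which 13.6% were not whole, and these were rounded. Values of overlapping genes, antisense genes and near-identical copies are uncertain, since estimation divides reads among similar transcripts and the strand setting is unknown. Genes were kept by edgeR's filterByExpr (minimum count 10, minimum total 15), which left at least 99.89% of counts in each library.

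One edgeR 4.0.16 quasi-likelihood model with TMM factors (R 4.3.3) held all 12 libraries, with Benjamini-Hochberg adjustment over all tested genes and a threshold of 0.05, and it was tested on simulated data. The median biological coefficient of variation was 0.214. Alternatives used limma 3.58.1, DESeq2 1.42.0, other factors, filters, covariates and left-out libraries. The comparison and the gene lists were chosen with earlier results of these data known. Named genes were the 15 largest rises and 15 largest falls of at least 5 CPM, from every list the members lowest in adjusted p (at most 5), genes fixed by name and the 10 interaction genes with the smallest p. The remaining interaction genes, SULF2, GTSE1, EBF2, DOCK1 and MAGI1 were named after their values were seen. A gene among those fixed by name is not reported here.

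Libraries of a group were too unlike to be 1 library deposited more than once (chi-square of 16.5 to 244 per gene). The edgeR p-values rest on the spread between the 3 libraries of a group, estimated jointly over all 4 groups and with no term for the set number. Positions and promoters are from RefSeq (GRCh38.p14), which matched 204 of the 209 named genes; spans, GC content and gene classes are from GENCODE v29.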

Additional observations from a re-analysis of the deposited data

Results flagged for a closer look

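For 14 genes the effect of 5-Ph-IAA with ATRi differed from its effect without ATRi by a test of that difference (edgeR interaction term, adjusted p under 0.05). The differences on the log2 scale were -2.20 for CDC25C, -1.36 for PCDH7, -1.88 for NDC80, 1.53 for NR4A1, -1.80 for CENPA, -1.86 for HJURP and -1.36 for CPS1. They were -1.95 for SAMD11, 2.13 for CCN1, -2.16 for AURKB, -1.51 for CDKN3, -2.02 for NUF2, -1.93 for FAM72D and -2.57 for PIF1. Over 23 alternatives the calls of CDC25C and PCDH7 were kept in all, that of NDC80 in 19, that of NR4A1 in 17 and those of CENPA and HJURP in 15. Those of CPS1 and CCN1 were kept in 13, those of AURKB, CDKN3 and SAMD11 in 12, those of NUF2 and PIF1 in 11 and that of FAM72D in 10. No difference of the 14 changed sign in these alternatives.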

How the results depend on the processing

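The count of genes called against ATRi, 634, became 1461 with DESeq2 (671 higher, 790 lower), 970 with only the 6 libraries compared (435 and 535), 3188 with the mitochondrial share as a covariate (1548 and 1640) and 306 with at least a 2-fold change (150 and 156). Leaving out each library gave 134 to 220. The interaction count, 14, became 47 with no count filter, 278 with that covariate (92 and 186), 9 with limma-voom and 212 with DESeq2 (67 and 145), and 2 to 15 without each library. The causes were not tested. The 1 call of 5-Ph-IAA against DMSO became 0 with library totals only, upper quartile factors, no count filter, limma-voom or a 2-fold minimum, 6 with the covariate, 18 with DESeq2, and 0 without each library; these, the library measures, the common total and the span shares were alternatives chosen after seeing the data. The titles number the libraries as sets 1 to 3, each with all 4 treatments, and no source used here says what a set shares. Deviations of same-numbered libraries correlated at 0.496, 0.0172 and 0.636 between combination and ATRi, so set 2 was not seen to pair there and the numbers were not used as pairs. They correlated at 0.494, 0.235 and 0.655 between combination and 5-Ph-IAA, at 0.803, 0.382 and 0.776 between ATRi and 5-Ph-IAA, and below 0 for set 1 in each comparison with DMSO (-0.141 to -0.105). Set 3 had the lowest mitochondrial share in all 4 groups. Whether a set is a shared batch was not settled. With a replicate block the counts were 1980 (906 and 1074) against ATRi and 215 (45 and 170) for the interaction, and the lists had 85 cell division, 24 replisome and 23 homologous recombination members lower and 40 p53 targets higher. Signs turned for TIPIN (0.0501 with the covariate; -0.12 to 0.0055 when each library was left out, positive without ATRi library 3) and PRKDC (0.17 with the covariate; -0.40 to 0.12, positive without ATRi library 3). The difference in mitochondrial share ran from -0.00317 (without ATRi library 3) to 2.97 percentage points. With 3 libraries a group, genes with small changes or large spread could not be called at this precision.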
